A study of Homo sapiens with 6 samples.

Results

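The genes described here are 50 genes of DNA replication and S phase, chosen by name, and all 50 were measured among the 19775 genes of the arrays. They were followed in HCT116, an established human colon carcinoma cell line, after transfection with 50 nM of miR-224 precursor molecules or 50 nM of control oligos. Both groups received oligos and were harvested after 24 h, so an untransfected state is not part of the comparison. There were 3 control and 3 miR-224 arrays, and the series describes them as pairs from 3 independent experiments. Each gene was read from its brightest probe set with a single gene symbol. Values are expression values on a log2 scale, and each difference is miR-224 minus control on that scale, within an experiment or as the mean of the 3 experiments. The amount of miR-224 in the cells was not analysed here.

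Before S phase, the origin recognition complex, CDC6 and CDT1 load the MCM helicase on DNA at replication origins. The kinase made of CDC7 and DBF4, with CDC45, MCM10 and the GINS complex, then turns the loaded helicase into a moving fork, where primase, the DNA polymerases, the PCNA clamp and its RFC loader copy the strands. Many of these genes are switched on together by the E2F transcription factors once cyclin-dependent kinases inactivate the RB proteins, so that their messenger RNA levels are commonly read as a sign of how many cells are entering or passing through S phase.

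The mature miR-224 sequence and a few promoters, searched for words of the E2F site, are printed first. The cells received precursor molecules, and which mature arm acted in them was not measured. The 5p arm, miR-224-5p, lies in the RefSeq table (GRCh38.p14) at chrX:151958628-151958652 on the minus strand. Its seed, bases 2 to 8, is in capitals.
hsa-miR-224-5p: uCAAGUCAcuagugguuccguuuag
Matches to this seed in the transcripts were not analysed here.

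RefSeq promoter windows of 300 bases were found for 46 of the 50 genes, while MCM4, MCM5, GINS4 and POLD3 had no entry. The windows were searched on both strands for 4 words of 8 letters that spell the classic E2F site, which are TTTCCCGC and TTTGGCGC as well as TTTCGCGC and TTTGCCGC. At least 1 of them was present in 22 of the 46 promoters (47.8%), against 3.33% of 27305 promoters in the table. The shorter words of 7 letters, either TTCCCGC or else TTGGCGC, each lie inside an 8-letter word. They were found in 28 of 46 promoters (60.9%), against 9.33% of all. CCAAT, the letters of the NF-Y site, was found in 28 of 46 (60.9%), against 35.7% of all. Control by E2F is one reason for which such genes are grouped, so these shares describe the list and are no test of it, and a word is not shown to be a bound site.

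**Figure D1:**
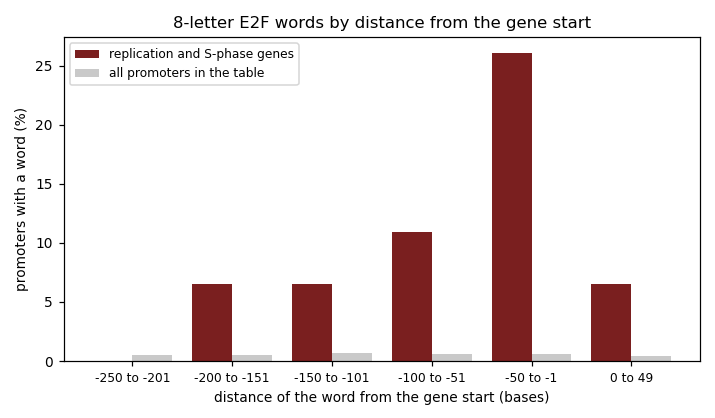
Share of promoters (%, vertical axis) that hold an 8-letter E2F word starting in each 50-base bin of the distance from the gene start (bases, horizontal axis), for 46 replication and S-phase genes and for all 27305 promoters. Among the replication genes the tallest bar is the bin just before the start, with 12 promoters (26.1%), against 0.634% of all promoters.

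The stretches below run from 120 bases before to 30 bases after the RefSeq gene start (GRCh38.p14), 5′ to 3′ on the gene's strand, with E2F words of 8 or 7 letters in capitals. CDC6, MCM3, GINS3, MCM2, E2F2 and E2F3 hold an 8-letter word and are described with their array values below. Of the genes with both traits, they had the smallest unadjusted p for miR-224 minus control, and PCNA and E2F1 are not printed. ORC6 is shown as a gene described below with neither kind of E2F word in its 300 bases.
CDC6, chr17:40287759-40287908, plus strand: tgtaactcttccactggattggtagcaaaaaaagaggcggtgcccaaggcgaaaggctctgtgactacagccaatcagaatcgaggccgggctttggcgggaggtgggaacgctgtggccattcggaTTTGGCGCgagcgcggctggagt
MCM3, chr6:52284713-52284862, minus strand: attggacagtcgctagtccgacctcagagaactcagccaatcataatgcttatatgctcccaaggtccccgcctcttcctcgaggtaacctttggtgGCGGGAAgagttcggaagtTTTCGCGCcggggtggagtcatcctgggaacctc
GINS3, chr16:58392351-58392500, plus strand: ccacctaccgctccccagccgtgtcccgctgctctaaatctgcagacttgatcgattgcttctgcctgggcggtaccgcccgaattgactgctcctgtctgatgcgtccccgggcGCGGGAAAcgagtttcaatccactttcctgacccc
MCM2, chr3:127598291-127598440, plus strand: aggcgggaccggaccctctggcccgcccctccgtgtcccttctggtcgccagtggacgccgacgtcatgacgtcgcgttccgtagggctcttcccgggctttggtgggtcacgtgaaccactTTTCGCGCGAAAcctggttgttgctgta
E2F2, chr1:23531204-23531353, minus strand: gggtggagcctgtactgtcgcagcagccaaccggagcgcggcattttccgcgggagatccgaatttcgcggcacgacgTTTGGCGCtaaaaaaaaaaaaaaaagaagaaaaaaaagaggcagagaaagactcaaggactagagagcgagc
E2F3, chr6:20401759-20401908, plus strand: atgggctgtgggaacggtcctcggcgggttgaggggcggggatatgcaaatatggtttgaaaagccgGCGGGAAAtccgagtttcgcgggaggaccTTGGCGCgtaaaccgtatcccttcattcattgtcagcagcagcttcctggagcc
ORC6, chr16:46689539-46689688, plus strand: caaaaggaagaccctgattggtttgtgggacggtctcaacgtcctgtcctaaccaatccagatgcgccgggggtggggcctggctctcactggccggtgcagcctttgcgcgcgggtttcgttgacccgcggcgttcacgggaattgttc
In CDC6 and MCM2 the 8-letter words begin after the gene start, whereas in E2F2 and E2F3 they lie before it. In GINS3 the word crosses the start, and in MCM3 one of them does.

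The arrays of experiment 1 were set apart from the others in a control signal, and the part of this in the values below was not tested. Control probe sets for actin sit at both ends of the transcript. The 5′ one averaged 4.28 over the pair of arrays of experiment 1, against 12.4 over the pair of experiment 2 and 12.4 over that of experiment 3, whereas the 3′ average was 12.5 in each experiment. Markers of colon epithelium were present, with a mean over 9 genes of 8.11 to 9.42 on control and 8.20 to 9.24 on miR-224 arrays, where the median gene of the arrays stood at 4.75. Lists of other cells stood lower on control and miR-224 arrays, at 3.57 to 3.77 and 3.71 to 3.88 for fibroblasts (6 genes), 2.80 to 2.87 and 2.73 to 2.94 for leukocytes (5), and 3.23 to 3.37 and 3.24 to 3.39 for endothelium (5). None of the 25 marker genes measured passed the limma test given below, and 3 were under 0.05 before adjustment (11.0% of all genes).

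The messenger RNAs of the replication genes did not differ between miR-224 and control cells beyond what the test allows. With limma and experiment as a block, 0 of the 50 passed an adjusted p under 0.05, where 0% of all genes passed as well (0 of 19775). The lowest adjusted p among the 50 was 0.344. Without experiment 1, in a fit with 1 residual degree of freedom, 174 of the 19775 genes passed and 0 of the 50. With so small a share of all genes passing, that 0 says little about the 50 genes. The arrays read whole cultures, so fewer cells in S phase and less RNA per cell cannot be told apart. The mean difference lay within 0.35 for all 50 genes, compared with 94.9% of all genes, and within 0.1 for 28 of them, compared with 49.5%. The median over the 50 genes was -0.01, against 0.01 over all genes. A higher mean was seen in 24 genes and a lower mean in 26.

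Taken by unadjusted p, 4 of the 50 genes (8%) were under 0.05, a smaller share than the 11.0% of all genes. These were POLD3, which was higher, and CDC6, ORC6 and GINS4, which were lower. Only 1 gene was on the higher side (5.45% of all genes) and 3 were on the lower side (5.52% of all genes). The direction was the same in every experiment for 16 genes (32%, against 32.7% of all genes), of which 8 were higher (18.3% of all genes) and 8 lower (14.4% of all genes). For none of the 50 did the 3 miR-224 values lie wholly above or below the 3 control values, which occurred for 6.27% of all genes. Such a separation is hard to reach where levels differ widely between experiments, as they did for these genes (below). The count is therefore no measure of the miR-224 difference.

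The missed threshold does not show that the levels were alike, and the intervals give the sizes that remain possible on the probe sets used. The 95% interval of the mean difference lay between -0.5 and 0.5 for 44 of the 50 genes, compared with 83.7% of all genes. Since 48 of the 50 were at or above the level of the median gene, the brighter genes are a closer background, and there the share was 81.9% for this interval, 93.1% for a mean within 0.35, 12.9% for an unadjusted p under 0.05 and 35.3% for the same sign in every experiment. On the probe sets used, the interval reached past 0.5 in size for CDC6, ORC2, ORC6, GINS4, DBF4 and POLD3, and past 0.6 for none. Other probe sets of these genes are not covered by this. Of 26 others at or above the level of the median gene, 23 had a mean difference within 0.35. The rest belonged to RRM2 (-0.43 ± 0.15), MCM4 (0.37 ± 0.11) and RFC5 (-0.35 ± 0.15).

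**Figure D2:**
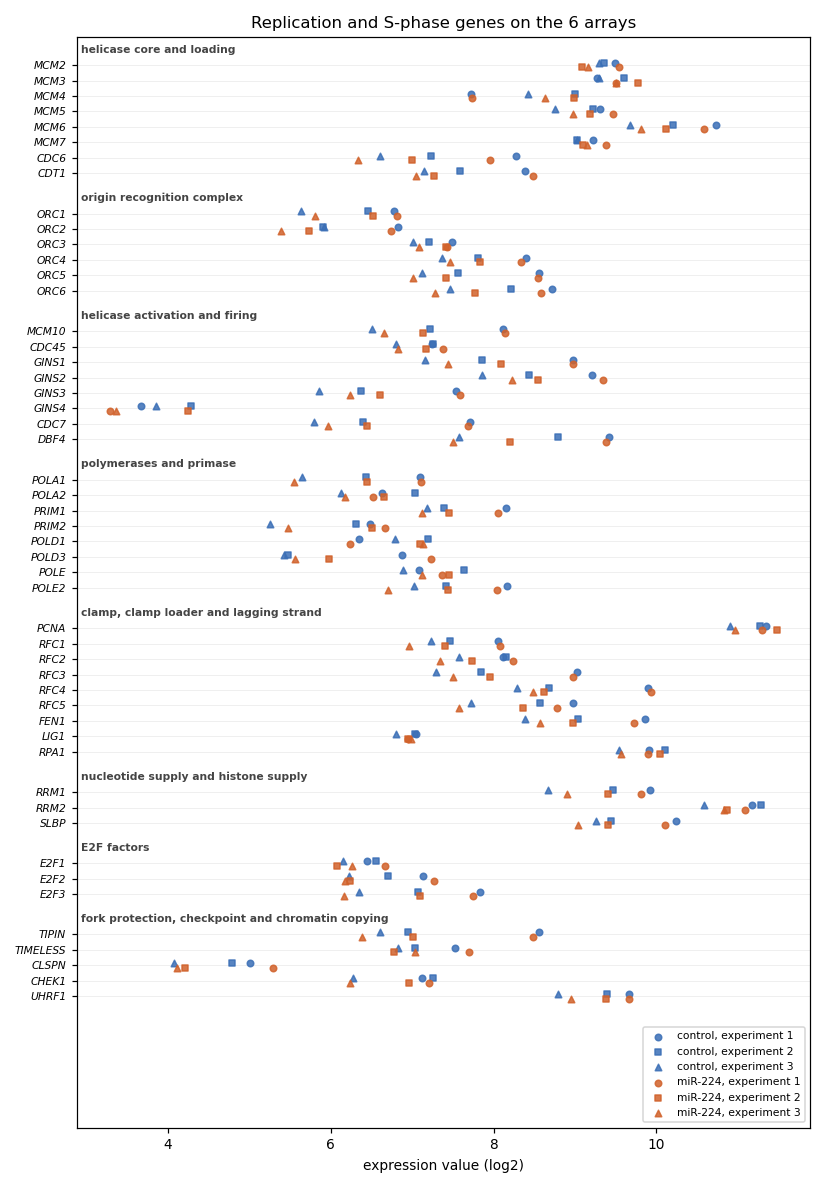
Expression value (log2, horizontal axis) of each of the 50 genes on the 6 arrays, by role, with control in blue, miR-224 in orange and a symbol for each experiment. Symbols of one experiment sit together more than colours do, as for CDC6, which reads 8.27 and 7.95 in experiment 1 and 6.60 and 6.33 in experiment 3.

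Among the 8 genes of the helicase core and its loading, 4 had a higher and 4 a lower mean, from -0.27 to 0.21. CDC6, the ATPase that helps to load MCM on origins, read 8.27, 7.23 and 6.60 on the control arrays of experiments 1, 2 and 3, and 7.95, 7.0 and 6.33 on the miR-224 arrays. The miR-224 array was the lower one of each pair, by similar amounts, although the groups overlap because the experiments lie far apart. The mean difference was -0.27 ± 0.10 (SE), with a 95% interval of -0.50 to -0.04 (limma adjusted p = 0.379). Without the block its standard error was 0.55, which takes in the differences between experiments.

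MCM3, a subunit of the ring-shaped MCM helicase, read 9.27, 9.60 and 9.29 on control and 9.50, 9.78 and 9.51 on miR-224 arrays. It was higher in every pair, by 0.24, 0.18 and 0.23, and the mean of 0.21 ± 0.10 had an interval of -0.02 to 0.44 (adjusted p = 0.493). MCM2, of the same ring, read 9.49, 9.36 and 9.29 on control and 9.54, 9.08 and 9.16 on miR-224 arrays. Its pairs disagreed in direction, and the mean was -0.12 ± 0.11. The other 4 subunits did not share one direction either, at 0.07 for MCM4, 0.10 for MCM5, -0.04 for MCM6 and 0.12 for MCM7. On the probe sets used, MCM7 alone of these had the same sign in each experiment. Other probe sets of MCM4 stood at 0.37, 0.02, 0.18 and 0.48. Those at 0.37, 0.18 and 0.48 were higher in every experiment, and the one at 0.48 was dim. A second MCM7 probe set, nearly as bright, stood at -0.16 ± 0.15 with both signs among its experiments. CDT1, which loads MCM together with CDC6, stood at -0.10 ± 0.12.

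The origin recognition complex marks the sites where the helicase is loaded, and 3 of its 6 subunits had a lower mean. ORC6 read 8.72, 8.21 and 7.47 on control arrays and 8.58, 7.77 and 7.28 on miR-224 arrays. Each pair had the lower value in the miR-224 cells, most in experiment 2 (-0.45), and the mean was -0.26 ± 0.11 (limma adjusted p = 0.444). ORC2 read 6.83, 5.90 and 5.92 on control and 6.74, 5.73 and 5.39 on miR-224 arrays. It was also lower in every pair, most in experiment 3 (-0.53), with a mean of -0.26 ± 0.12 (adjusted p = 0.464). ORC5 was lower in every pair by less, at -0.09 ± 0.10 on average, while ORC1, ORC3 and ORC4 stood at 0.08, 0.08 and 0.02.

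On the probe sets used, the genes that switch the loaded helicase on held both signs within a single complex. GINS is a complex of 4 subunits that binds MCM and CDC45 at the fork. GINS3 read 7.54, 6.37 and 5.86 on control and 7.59, 6.60 and 6.23 on miR-224 arrays, and was higher in each pair with a mean of 0.22 ± 0.11 (adjusted p = 0.513). GINS1 and GINS2 were higher in each pair as well, by 0.18 ± 0.11 and 0.20 ± 0.11. GINS4 went the other way, with 3.67, 4.28 and 3.85 on control and 3.29, 4.25 and 3.36 on miR-224 arrays, and a mean of -0.30 ± 0.12 (limma adjusted p = 0.418). Its probe set is dim, under the 4.75 of the median gene, and the pair of experiment 2 differed by -0.02. Averaged over all its probe sets, which are dim as well, GINS4 stood at -0.12. GINS2 and GINS3 each had another probe set above the level of the median gene, at -0.10 and -0.04. A split between the subunits is therefore not shown.

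DBF4, the activating subunit of the CDC7 kinase, had a mean of -0.23 ± 0.13 that came mostly from experiment 2, where it stood at -0.59, against -0.03 and -0.08 in experiments 1 and 3. CDC7 itself was at 0.07 ± 0.10. CDC45 and MCM10, which join the helicase as it is activated, were both at 0.03.

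Of the 8 genes for polymerases and primase, POLD3 had the smallest p of all 50. POLD3, an accessory subunit of DNA polymerase delta, read 6.88, 5.47 and 5.43 on control arrays and 7.23, 5.98 and 5.56 on miR-224 arrays. It was higher by 0.34, 0.51 and 0.13 in experiments 1, 2 and 3, with a mean of 0.33 ± 0.11 and an interval of 0.07 to 0.58 (limma adjusted p = 0.344). A second, dim probe set stood at -0.02, and the mean of both was 0.15. Its catalytic partner POLD1 was at 0.04 ± 0.12. PRIM2, the large subunit of primase, read 6.48, 6.31 and 5.25 on control and 6.67, 6.51 and 5.47 on miR-224 arrays. The pairs differed by 0.19, 0.20 and 0.22, which is the most even shift among these genes, and the mean was 0.20 ± 0.10 (adjusted p = 0.513). The small subunit PRIM1 stood at -0.04. POLA1 and POLA2 of polymerase alpha were at -0.02 and -0.15, and POLE and POLE2 of polymerase epsilon at 0.11 and -0.15, each with both signs among its experiments.

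The clamp, its loader and the enzymes of the lagging strand ranged from -0.19 to 0.09 over 9 genes, of which 4 had a higher and 5 a lower mean. PCNA, the sliding clamp, read 11.35, 11.27 and 10.90 on control and 11.30, 11.48 and 10.96 on miR-224 arrays. The pairs differed in sign, and the mean was 0.08 ± 0.11 with an interval of -0.16 to 0.32. RFC5, a small subunit of the clamp loader, read 8.98, 8.57 and 7.72 on control and 8.78, 8.36 and 7.57 on miR-224 arrays, and was lower in each pair with a mean of -0.19 ± 0.10 (adjusted p = 0.538). RFC2, another subunit, read 8.11, 8.15 and 7.57 on control and 8.24, 7.73 and 7.34 on miR-224 arrays, so that it was higher in experiment 1 and lower in the others (mean -0.17 ± 0.13). RFC1, RFC3 and RFC4 were at -0.10, 0.09 and 0.05. FEN1, the flap endonuclease, and RPA1, of the protein that coats single-stranded DNA, were each at -0.01, and LIG1, the ligase that joins Okazaki fragments, was at 0.00.

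Ribonucleotide reductase supplies deoxynucleotides, and its subunit RRM2 is a common marker of S phase. RRM2 read 11.18, 11.29 and 10.58 on control arrays and 11.09, 10.87 and 10.83 on miR-224 arrays, with a mean of -0.08 ± 0.14. On this probe set the pair of experiment 2 stood at -0.41 and that of experiment 3 at 0.26, and without experiment 2 the mean was 0.08. A second RRM2 probe set, nearly as bright, was lower in every experiment, with a mean of -0.43 ± 0.15. RRM1, the other subunit, was at 0.02 ± 0.11. SLBP, which binds the stem-loop of histone messenger RNAs, read 10.24, 9.44 and 9.26 on control and 10.11, 9.40 and 9.04 on miR-224 arrays. It was lower in each pair, by a mean of -0.13 ± 0.10 (adjusted p = 0.706).

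The activating E2F factors were each close to 0 on average, with both signs among their experiments. E2F1 read 6.44, 6.55 and 6.15 on control and 6.67, 6.07 and 6.26 on miR-224 arrays, which is higher in experiments 1 and 3 and at -0.48 in experiment 2. The mean was -0.05 ± 0.14, and 0.17 without experiment 2. E2F2 read 7.13, 6.70 and 6.22 on control and 7.27, 6.24 and 6.17 on miR-224 arrays, with a mean of -0.12 ± 0.13 that became 0.05 without experiment 2. E2F3 read 7.83, 7.07 and 6.35 on control and 7.75, 7.10 and 6.16 on miR-224 arrays, and its mean was -0.08 ± 0.11.

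Fork protection and checkpoint genes had means from -0.08 to 0.05. TIPIN, which with TIMELESS steadies the fork, read 8.56, 6.95 and 6.60 on control and 8.48, 7.01 and 6.38 on miR-224 arrays (mean -0.08 ± 0.11). CHEK1, the checkpoint kinase that answers stalled forks, read 7.12, 7.25 and 6.27 on control and 7.20, 6.96 and 6.24 on miR-224 arrays (mean -0.08 ± 0.11, and 0.03 without experiment 2). CLSPN, the adaptor that brings CHEK1 to its activating kinase, stood at 0.28, -0.58 and 0.05 in experiments 1, 2 and 3. TIMELESS and UHRF1, which helps to copy DNA methylation, were at 0.04 and 0.05.

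**Figure D3:**
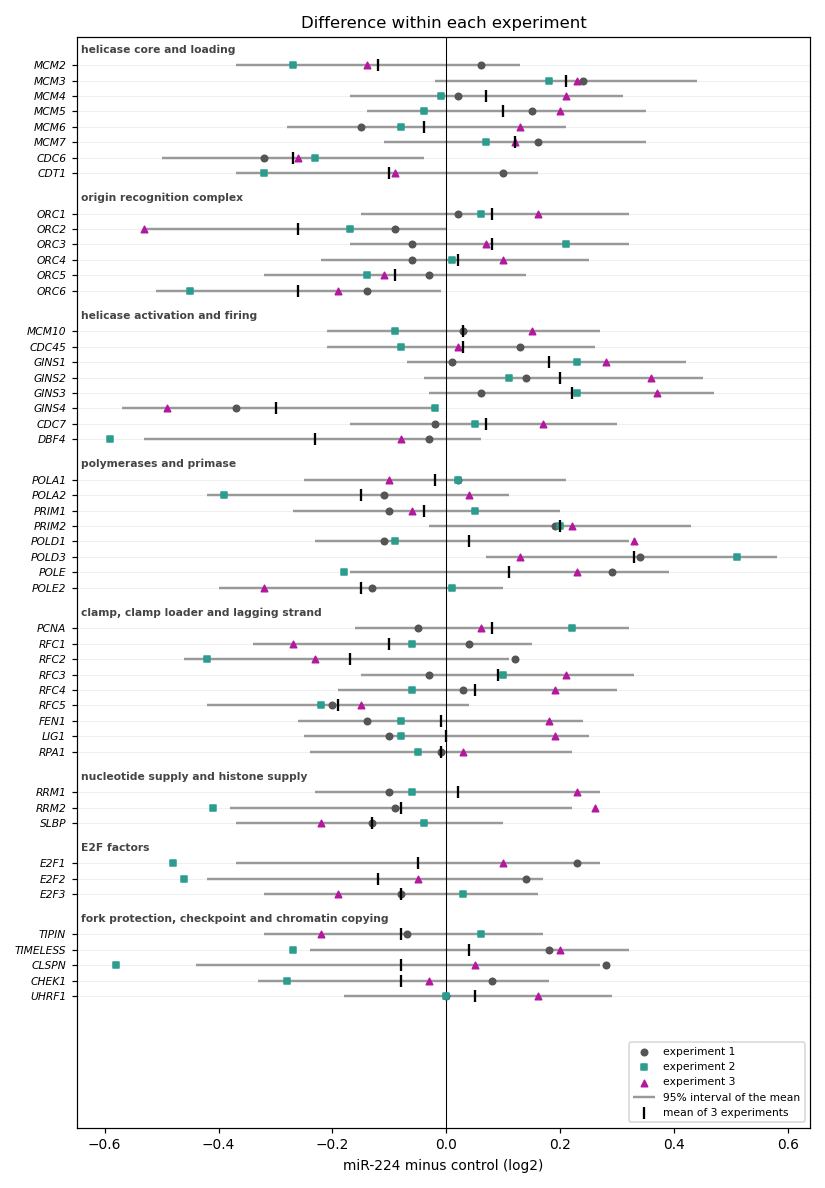
Difference between the miR-224 and the control array of each experiment (log2, horizontal axis) for the 50 genes, by role, with the mean of the 3 experiments as a black tick and its 95% interval as a grey bar. All means lie between -0.30 and 0.33, and POLD3, CDC6, ORC6 and GINS4 are the 4 genes whose interval leaves out 0.

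The experiments differed in where the genes lay. In experiment 2, 18 of the 50 genes were higher in the miR-224 cells (50.2% of all genes), and 7 were lower by 0.4 or more (5.38% of all genes), namely ORC6, DBF4, RFC2, RRM2, E2F1, E2F2 and CLSPN. In experiment 3, 31 of the 50 were higher (52.6% of all genes), and 2 were lower by 0.4 or more (7.42% of all genes). Experiment 1 was split evenly, with 25 higher (53.1% of all genes) and none lower by that amount (3.64% of all genes). A value higher by 0.2 or more was seen for 5 genes in experiment 1 (19.1% of all genes), 5 in experiment 2 (17.6%) and 13 in experiment 3 (21.5%). The medians over the 50 genes were -0.06 in experiment 2 and 0.09 in experiment 3. With 1 pair in each experiment, the difference between experiments in the response to miR-224 was not tested.

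**Figure D4:**
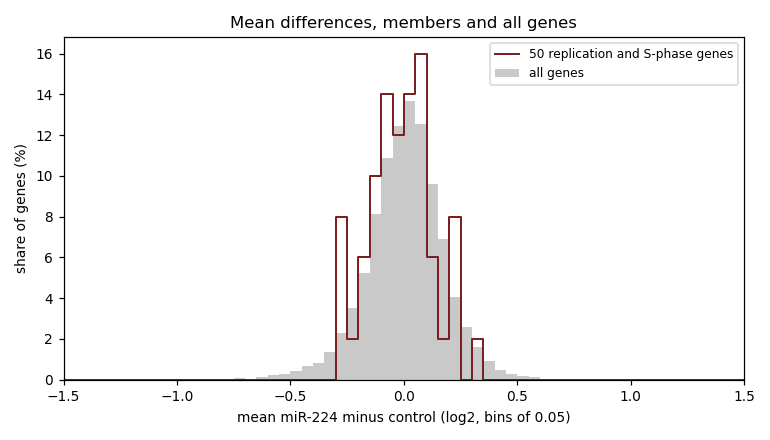
Distribution of the mean miR-224 minus control difference (log2, horizontal axis, bins of 0.05) as a share of genes (%, vertical axis), for all 19775 genes in grey and for the 50 replication and S-phase genes as a dark line. The dark line stays between -0.30 and 0.33, near the middle of the grey distribution.

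Other probe sets gave a second reading of these genes that the choice by brightness did not use. For 29 of the 50 genes there were 47 such probe sets, and 0 of them passed limma over all probe sets, where 0 of all 41091 passed (before adjustment, 7 of the 47 and 4122 of the 41091 were under 0.05). Of the 26 that were at or above the level of the median gene, 5 were under 0.05 before adjustment, against 13.1% of all such probe sets, and 14 had the sign of the probe set used and 12 the opposite sign, so that the direction given above for a gene is often that of 1 probe set. For CDC6 the second probe set stood at -0.04 ± 0.14, against -0.27 on the one used and -0.16 for their mean. Those of GINS2 and GINS3 stood at -0.10 and -0.04, against 0.20 and 0.22. For E2F3 the second was at 0.27, against -0.08.

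MCM4, RRM2 and MCM10 each had some larger values, in size, on probe sets that were not used. MCM4 had 5 probe sets, all with a positive mean, at 0.07 on the brightest and at 0.37, 0.02, 0.18 and 0.48 on the others. Those at 0.37, 0.18 and 0.48 were higher in every experiment (limma adjusted p = 0.34, 0.638 and 0.292), and the probe set at 0.48 was dim. RRM2 had a second bright probe set at -0.43 ± 0.15, lower in every experiment at -0.22, -0.90 and -0.17 (limma adjusted p = 0.412). RFC5 had 3 bright ones at -0.19, 0.21 and -0.35. MCM10, at 0.03 on the one used, had bright ones at -0.34 (lower in every experiment, limma adjusted p = 0.44) and -0.12. MCM4, RRM2, RFC5 and MCM10 are given here because of the values themselves.

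The 50 genes varied far more between experiments than between miR-224 and control cells. Experiment 1 gave the highest value in both groups for 36 of them (35.1% of all genes), experiment 3 gave the lowest in both groups for 40 (23.8% of all genes), and both held for 32 (18.3% of all genes). CDC7 is an example, with a mean of 7.70 in experiment 1, 6.43 in experiment 2 and 5.87 in experiment 3. The median standard error of the 50 genes was accordingly 0.11 with the block and 0.37 without it. Over all genes it was 0.11 and 0.17, and over the genes at or above the median level 0.11 and 0.23. This comparison of experiments was added after the values had been seen.

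Experiments 2 and 3 had the same 5′ signal of actin (12.4 each), and between them the replication genes were lower in experiment 3. The median of experiment 3 minus experiment 2 was -0.45 over the 50 genes, 0.02 over all genes and -0.06 over the genes at or above the median level. On the control arrays alone the median over the 50 genes was -0.52, and on the miR-224 arrays alone -0.39. In limma, 18 of the 50 genes (36%) were lower in experiment 3 at an adjusted p under 0.05, against 4.21% of all genes, and 0 were higher, against 1.46%. In both groups the value of experiment 3 was below that of experiment 2 for 43 genes, against 31.2% of all genes. Over the same step the 9 colon epithelium markers had a median of 0.25, and the part of this in the result was not tested. CLDN4 stood at 0.55, ELF3 at 0.51, KRT19 at 0.41, CDX2 at 0.31, KRT18 at 0.25 and KRT8 at 0.20. CLDN7 was at 0.15 and CDH1 at 0.04, while EPCAM went the other way at -0.14. The test sets both arrays of one experiment against both of another, so it compares these 2 experiments only.

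The genes lower in experiment 3 came from each of the 8 roles. For PRIM2 the difference was -1.05 ± 0.12 (limma adjusted p = 0.0041), for DBF4 -0.95 ± 0.16 (0.0123) and for CHEK1 -0.85 ± 0.14 (0.0112). It was -0.84 ± 0.13 (0.0083) for POLA1, the catalytic subunit of polymerase alpha, -0.83 ± 0.13 (0.00969) for E2F3 and -0.82 ± 0.13 (0.00867) for RFC5. ORC1 (-0.78), GINS1 (-0.68), RRM1 (-0.66), CDC6 (-0.65) and MCM10 (-0.60) were also among the 18. MCM2, MCM7 and TIMELESS showed almost no such difference, at 0.00, 0.03 and 0.02. For 45 of the 50 genes, the step from experiment 2 to 3 was larger in size than the mean difference between miR-224 and control cells, which held for 64.1% of all genes.

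Against the mean of experiments 2 and 3, experiment 1 was higher for 35 of the 50 genes at an adjusted p under 0.05 (limma), compared with 26.8% of all genes, and lower for MCM4, GINS4 and POLD1, compared with 8.82%. The median was 0.78 over the 50 genes, 0.30 over the genes at or above the median level and 0.05 over all genes. The values ran from -1.04 ± 0.11 for MCM4 to 1.79 ± 0.12 for TIPIN. These values come with the low 5′ signal of experiment 1 described above, whose part in them was not tested.

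**Figure D5:**
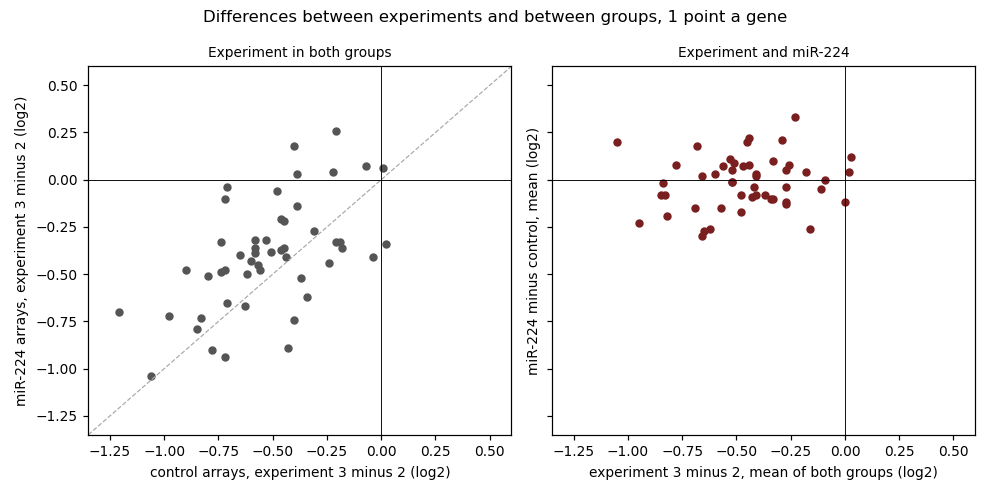
Left, experiment 3 minus experiment 2 on the control arrays (log2, horizontal axis) and on the miR-224 arrays (log2, vertical axis), 1 point for each of the 50 genes, with the line of equal values dashed. Right, experiment 3 minus 2 as the mean of both groups (horizontal axis) and miR-224 minus control as the mean of the experiments (vertical axis), on the same scale: 43 genes lie under 0 on both axes of the left plot, while the points of the right plot spread on both sides of 0 from -0.30 to 0.33 on the vertical axis.

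Among related genes outside the 50, 0 of 58 measured passed limma at the adjusted threshold. Before adjustment, DNA2, DNMT1 and CCNA2 were under 0.05, all 3 on the higher side. Over all genes, 11.0% were under 0.05 in either direction and 5.45% on the higher side. Of 21 other subunits and helpers of the replisome, 8 had a higher and 13 a lower mean, with a median of -0.06. DNA2, a nuclease and helicase of the lagging strand, was higher by 0.16, 0.50 and 0.82 in experiments 1, 2 and 3 (adjusted p = 0.259), and POLE4, a small subunit of polymerase epsilon, stood at -0.01, -0.22 and -0.31 (0.597). Of 10 other E2F and pocket protein genes, 3 had a higher and 7 a lower mean, with a median of -0.03. E2F5, a repressive E2F, stood at -0.23, -0.41 and -0.02 (0.527), and RBL2, which encodes the pocket protein p130, at 0.02, -0.11 and -0.58 (0.589).

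Among 27 other S-phase and E2F target genes, 17 had a higher and 10 a lower mean, with a median of 0.07. DNMT1, the maintenance DNA methyltransferase, was higher by 0.34, 0.62 and 0.21 (limma adjusted p = 0.282), and CCNA2, the cyclin of S phase and G2, by 0.22, 0.17 and 0.61 (0.358). All 3 of these lists were lower in experiment 3 than in experiment 2, with medians of -0.43, -0.30 and -0.39.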

How the data were processed

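The data are 6 Affymetrix expression arrays of HCT116 total RNA, 3 control and 3 miR-224. The deposited values are on a log2 scale, and the submitters' processing notes name RMA and Partek for them. Their versions and settings, and the base of the log, which was read as 2, are not stated in the sources. RMA makes the arrays' distributions alike, so a shift shared by most genes cannot be seen. Array values ranged from 1.47 to 13.6, and the number of arrays limits the precision.

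A single gene symbol was available for 41091 of 54675 probe sets. Several symbols (1801 probe sets), no entry in the table (11777) and control probes (62) were reasons to leave one out. Symbols were checked against the RefSeq gene table (GRCh38.p14), with 0 changed. Each of 19775 genes was read from its brightest probe set. The 50 genes, the related lists and the tests were chosen with earlier results of these data known.

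The test was limma's moderated linear model (version 3.58.1, R 4.3.3), two-sided, with experiment as a block, 2 residual degrees of freedom, and p-values adjusted by Benjamini-Hochberg across the 19775 genes at a threshold of 0.05. The block is used because the series describes pairs from 3 independent experiments and the titles number both groups 1 to 3. As a check, each array's deviations from its group mean were correlated over genes, which are no replicates. Same-numbered arrays gave 0.855, 0.585 and 0.771, the highest values, and others gave -0.753 to 0.257. Deviations cancel out within a group, so high values between same-numbered arrays push the others down. The range of the others is therefore no separate support for the pairing. Standard errors are those of the moderated fit. The steps were tested on simulated data. Named in full are, in each role, the 2 genes of smallest p, the 4 largest differences in each direction that kept 1 sign over the experiments, and PCNA, MCM2, CDC6, E2F1 and RRM2; of each related list, the 2 genes of smallest p. Promoters were printed for up to 6 of them with an 8-letter E2F word, by smallest p, and for 1 without. Alternatives were the fit without the block, each experiment left out, other variance models, array weights, averaging all probe sets of a gene, a filter on dim genes, median centring, a looser threshold, and 1 strand for the words. Plots were made in Python 3.11.15 (matplotlib 3.10.9).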

Additional observations from a re-analysis of the deposited data

How the results depend on the processing

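None of the 50 genes, and none of the 58 related genes, passed under any of the alternatives run, although some of them called other genes: 174 without experiment 1, 56 with an intensity trend and robust variances, and 4 with array weights or at an adjusted p under 0.1. Without experiment 2 or 3, and in the fit with no replicate block, 0 genes passed (lowest adjusted p among the 50 genes 0.9999 without the block). With no replicate block, 0 of the 50 genes had an unadjusted p under 0.05 on the higher side and 0 on the lower side. Leaving out an experiment gave 0 to 2 on the higher side and 0 to 3 on the lower side, 9 to 18 genes higher in every remaining experiment and 12 to 16 lower, counts that grow because fewer pairs must share a sign. On the higher side there were 2 with an intensity trend and robust variances and 3 after averaging all probe sets of a gene, which gave 1 on the lower side; the cause was not tested. Of 19 genes named in full, 14 kept their sign throughout. Leaving out 1 experiment gave -0.25 to 0.08 for RRM2, -0.19 to 0.17 for E2F1, -0.25 to 0.05 for E2F2 and -0.16 to 0.03 for CHEK1, positive without experiment 2 only, and the sign turned with averaged probe sets for E2F2 (0.01) and E2F3 (0.09). On 1 strand, 9 promoters held an 8-letter E2F word and 15 a 7-letter word, since fewer matches are possible. The genes lower in experiment 3 than in experiment 2 numbered 17 to 26 over the alternatives with the block, and those higher in experiment 1 26 to 36. For the counts at an unadjusted p, of a shared sign and between experiments, shares of all genes are not given under these alternatives. Whether those counts stand above the background cannot be read from them. With 3 pairs and a median standard error of 0.11, the 95% intervals of 6 genes still reach past 0.5 in size on the probe sets used. CLSPN and GINS4 were read from probe sets under the level of the median gene, where signal over background is least.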
